A study of Homo sapiens with 6 samples.

Results

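The integrin, laminin and basement membrane genes described here are 44 of the 60609 gene identifiers in each deposited file. They are the protein-coding genes for integrin alpha chains (18) and beta chains (8) and for laminin alpha, beta and gamma chains (5, 4 and 3), together with the nidogens NID1 and NID2, perlecan (HSPG2), agrin (AGRN), dystroglycan (DAG1) and fibronectin (FN1). Members were taken by gene symbol, and 16 genes with similar symbols that encode no such chain were left out. Their mRNA was measured by RNA sequencing in HEK293, an established human embryonic kidney line, in 3 wild-type libraries and 3 libraries from cells in which STAT5B had been knocked out. STAT5B is a transcription factor activated by cytokine and growth hormone receptors through JAK kinases. CRISPR/Cas9 was used for the knockout, and the labels say that biallelic mutant clones were chosen with sequencing and Western blots. The number of clones behind the 3 knockout libraries is not stated. Both groups grew in DMEM with fetal bovine serum, and the titles of both carry the word Sham, which the labels leave unexplained. A passage of the protocol also names GS knockout clones without saying what they are. The labels speak of triplicates without naming separate cultures, so p-values measure the spread between these libraries, which may be technical. What a picked clone differs in by descent and what follows from losing STAT5B cannot be told apart here.

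Integrins are paired receptors, 1 alpha with 1 beta chain, that hold cells to the extracellular matrix and pass signals to the actin cytoskeleton. Laminins are cross-shaped trimers of an alpha, a beta and a gamma chain that polymerise into the sheet of the basement membrane, where nidogens, perlecan and agrin join them to type IV collagen. In kidney tissue such sheets lie under the tubule epithelium and form part of the filter of the glomerulus. Dystroglycan is a laminin receptor that works beside the integrins.

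Library totals ran from 17494958 to 21099813 estimated counts, and 22337 to 23103 genes had a count above 0. STAT5B itself read 70.1, 64.6 and 69.4 CPM (counts per 1000000 counts of the library) in wild-type cells and 63.1, 61.8 and 60.5 in knockout cells. Its log2 fold change was -0.14 (SE 0.047, edgeR adjusted p = 0.0468), and an mRNA level does not check an edit that leaves the message in place. Of 9 HEK293 transcripts, PAX2, vimentin and neurofilaments among them, all were detected well enough to test, with a summed level of 1070 to 1100 TPM (abundance per length, scaled to 1000000) in wild-type cells and 928 to 954 in knockout cells. These summed levels did not overlap between the groups. Of these 9, 1 was higher and 3 were lower by edgeR, beside 12.1% higher and 11.4% lower of all tested genes. Markers of other cells were low in both groups. Summed TPM was 1.63 to 2.32 against 2.30 to 2.49 for 7 endothelial genes, 4.54 to 6.27 against 4.70 to 5.44 for 7 haematopoietic genes, and 0 to 0.44 against 0.224 to 0.469 for 5 platelet genes. It was 5.88 to 6.89 against 5.42 to 6.74 for 8 fibroblast genes, 5.78 to 7.64 against 5.97 to 9.05 for 7 genes of differentiated epithelium, and 28.0 to 29.7 against 25.3 to 27.9 for 4 podocyte genes. CDH5, TEK, TIE1, EMCN, PTPRC, CD3E, CD53, PPBP, GP9, KRT14 and KRT19 were listed at 0 in every library. Of these 6 lists 10 genes could be tested, and 0 passed with edgeR, DESeq2 or limma-voom, with 1 at an unadjusted edgeR p under 0.05. In bulk samples fewer cells of a type and less RNA per cell cannot be told apart.

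Of the 44 genes, 33 had enough counts to test, and 8 of these passed the threshold (edgeR quasi-likelihood test, adjusted p under 0.05). NID1 and ITGAE rose in knockout cells, and DAG1, LAMB1, LAMA1, ITGB5, LAMA4 and LAMA5 fell. The 8 are 24.2% of those tested, beside 23.4% of all 15958 tested genes, so the share called was near the background. By direction, 2 of 33 rose against a background of 12.1%, and 6 of 33 fell against 11.4%. The wild-type and knockout libraries did not overlap for 14 of the 33, beside 38.6% of all tested genes. Changes were small: the median log2 fold change was -0.086 over the 33 and 0.0063 over all tested genes, and the median size without sign was 0.17 and 0.14. None of the 8 passed a test against a change of 1.2-fold.

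**Figure D1:**
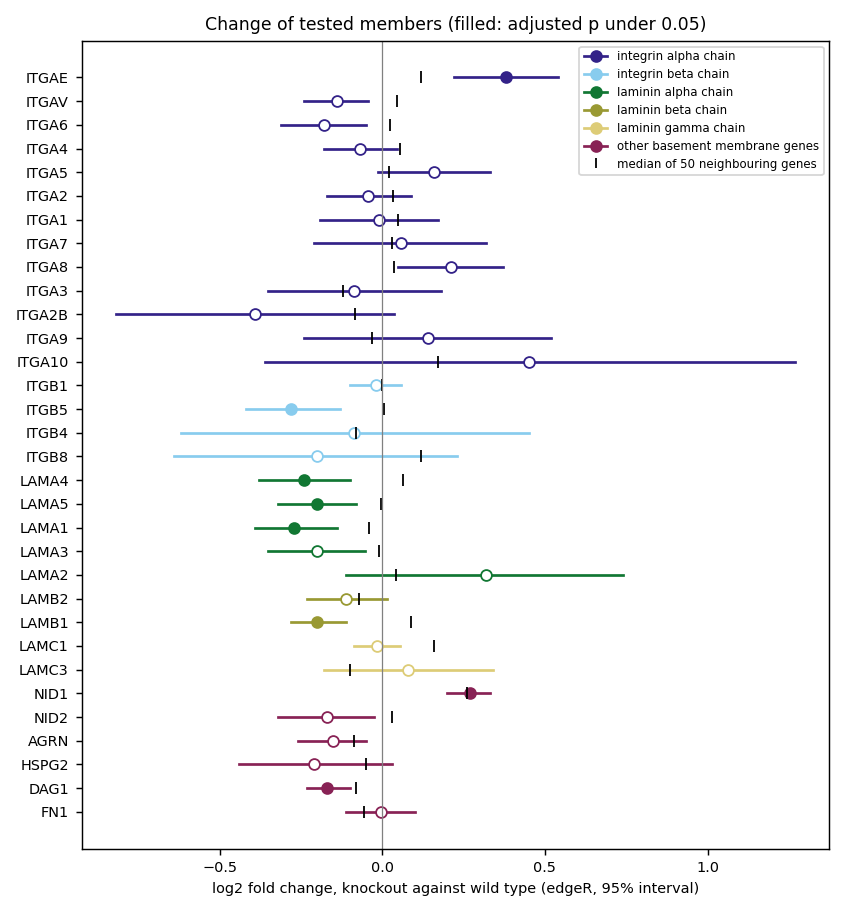
Log2 fold change of tested members, knockout against wild type, with 95% intervals as lines (normal approximation). Points are filled where the edgeR adjusted p was under 0.05. Colours give the kind of protein, and a black tick gives the median of the 50 neighbouring tested genes. NID1 (0.27) and ITGAE (0.38) lie to the right of 0, and the 6 filled points to the left reach from -0.17 for DAG1 to -0.28 for ITGB5.

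Promoter windows were read for 31 of the 44 members from RefSeq (GRCh38.p14), in 39 windows of 300 bases around transcript starts. The 250 bases upstream are shown for the 4 called members with the smallest p, so that the STAT5-type letters TTCNNNGAA, searched on both strands, can be read in place. Of the 8 called members 7 have a window, LAMA1 being the exception, and ITGAE was the only one of the 7 with those letters. In the ITGAE line capitals mark that site, which begins 235 bases before the start. The deposited ITGAE length was only 18.5% of its longest annotated transcript, and whether its reads come from this start was not tested. In the other lines capitals mark GGGCGG or its complement CCGCCC, the GC box. NID1 is read at chr1:236065091-236065340 (minus strand), ITGAE at chr17:3801189-3801438 (minus), DAG1 at chr3:49469882-49470131 (plus, 1 of its starts) and LAMB1 at chr7:108003162-108003411 (minus).
NID1: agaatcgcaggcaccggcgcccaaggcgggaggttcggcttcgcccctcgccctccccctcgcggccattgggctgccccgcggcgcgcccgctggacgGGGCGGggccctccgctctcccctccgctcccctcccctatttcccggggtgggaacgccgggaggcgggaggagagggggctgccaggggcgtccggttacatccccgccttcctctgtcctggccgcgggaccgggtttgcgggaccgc
ITGAE: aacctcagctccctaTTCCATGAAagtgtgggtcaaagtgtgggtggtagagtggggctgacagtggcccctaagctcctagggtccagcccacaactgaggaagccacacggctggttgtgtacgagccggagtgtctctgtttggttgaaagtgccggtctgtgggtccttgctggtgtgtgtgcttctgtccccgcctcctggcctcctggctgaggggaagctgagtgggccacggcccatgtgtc
DAG1: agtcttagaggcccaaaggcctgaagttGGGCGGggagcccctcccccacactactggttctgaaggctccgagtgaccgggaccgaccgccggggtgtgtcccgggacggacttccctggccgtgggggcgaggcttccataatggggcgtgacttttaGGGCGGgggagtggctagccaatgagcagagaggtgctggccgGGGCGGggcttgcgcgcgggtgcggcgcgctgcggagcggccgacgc
LAMB1: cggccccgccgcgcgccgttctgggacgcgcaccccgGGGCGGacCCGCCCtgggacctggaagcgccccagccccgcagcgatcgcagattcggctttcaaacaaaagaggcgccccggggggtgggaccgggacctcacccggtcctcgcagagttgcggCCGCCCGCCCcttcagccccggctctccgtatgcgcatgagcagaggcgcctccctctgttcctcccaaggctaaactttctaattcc

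The TTCNNNGAA letters were in 2 of the 39 member windows (5.13%), those of ITGAE and LAMB2, and in 7.66% of all 35116 promoter windows. The GC box was in 25 member windows (64.1%) and 45.0% of all windows, including those of NID1, which rose, and of DAG1, ITGB5, LAMA5 and LAMB1, which fell. TGANTCA, the AP-1 letters, was in the windows of ITGA5, LAMA3 and LAMB3 and in 7.71% of all windows. GGAATG, the TEAD letters, was in 4 member windows and 14.0% of all, and TATAAA in those of ITGA6 and ITGB1 and 11.5% of all. A match is a run of letters, not a bound site.

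Of the 6 falls, 4 were in laminin chains. Of 10 tested laminin genes, 4 fell, 6 did not pass the test, and none rose by edgeR, DESeq2 or limma-voom, with 0 higher also at an unadjusted p under 0.05. Over all tested genes 11.4% fell, and 15.1%, 30.2% and 41.9% in the length bands from 3000 to 5000, from 5000 to 7000 and above 7000 bases, where all tested laminin genes but LAMB2 lie. The 4 laminin falls became 2 with length-trend offsets and 0 with effective-length offsets. The median log2 fold change of the 10 was -0.15. The falls were in alpha chains (3 of 5) and beta chains (1 of 2), and of 3 gamma chains 0 passed with edgeR, DESeq2 or limma-voom or at an unadjusted p under 0.05. Alpha chains carry the domains that integrins and dystroglycan bind, while beta and gamma chains complete the trimer.

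LAMB1 (chromosome 7, 107923799 to 108003255, minus strand), the beta chain of many embryonic and vascular laminins, gave 64.7, 66.9 and 66.5 CPM in wild-type cells and 56.9, 56.6 and 59.4 in knockout cells. Every knockout library was below every wild-type library. The means were 66.1 ± 1.17 and 57.6 ± 1.5 (SD, n = 3 each), giving a log2 difference of -0.20 (SE 0.045, edgeR adjusted p = 0.00544). DLD overlaps it on the opposite strand, with a log2 fold change of 0.082 (adjusted p = 0.0985), and the sources used here do not say whether counting used strand.

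LAMA1 (chromosome 18, 6941744 to 7117814, minus strand) encodes the alpha chain of laminin-111, the laminin of early embryonic basement membranes. It gave 38.7, 36.0 and 33.9 CPM in wild-type cells and 30.8, 28.4 and 31.1 in knockout cells, with no overlap. The means were 36.2 ± 2.41 and 30.1 ± 1.5, a log2 fold change of -0.27 (SE 0.065, edgeR adjusted p = 0.00865). LAMA4 (chromosome 6, 112108760 to 112254939, minus strand), the alpha chain of vessel, muscle and fat laminins, gave 30.9, 37.3 and 32.5 CPM against 28.6, 28.9 and 28.0. The groups were apart, but wild-type replicate 2 stood above the other wild-type libraries. Means of 33.6 ± 3.35 and 28.5 ± 0.441 gave a log2 fold change of -0.24 (SE 0.071, edgeR adjusted p = 0.0256). Without wild-type replicate 2 the adjusted p was 0.131, and it was 0.0715, 0.059 and 0.0571 without knockout replicates 1, 2 and 3. LAMA5 (chromosome 20, 62307955 to 62367312, minus strand) encodes the alpha chain of most mature epithelial and glomerular laminins. It gave 53.8, 47.9 and 46.4 CPM against 43.2, 41.8 and 43.9. Wild-type replicate 1 was the highest library, and all 3 knockout libraries lay below the wild type. The means were 49.4 ± 3.95 and 43.0 ± 1.11, a log2 fold change of -0.20 (SE 0.060, edgeR adjusted p = 0.0282). The LAMA5 call ended without wild-type replicate 1 (adjusted p = 0.136) and without knockout replicates 1 (0.0659) or 2 (0.0963). ADRM1 overlaps LAMA5 on the opposite strand, with 4809 and 4786 summed counts in wild-type and knockout libraries, beside 2809 and 2400 for LAMA5. The strand limit given for LAMB1 holds here too, and other members, ITGA7 and ITGB4 among them, are overlapped in the same way.

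The other laminin chains did not pass. LAMA3, the alpha chain of the laminin that anchors epithelia, gave 24.3, 25.1 and 21 CPM in wild-type cells and 20.3, 20.4 and 20.3 in the knockout (log2 fold change -0.20, edgeR adjusted p = 0.0709). These groups did not overlap, and without wild-type replicate 3 the adjusted p was 0.0184. LAMA2, the alpha chain of muscle laminin, averaged 3.26 ± 0.188 and 4.03 ± 1.27 CPM, with knockout replicate 2 the highest at 5.42. LAMB2, the beta chain of the mature glomerular filter, had means of 46.9 ± 0.929 and 43.6 ± 3.70 CPM (log2 fold change -0.11, edgeR adjusted p = 0.245). LAMC1, the gamma chain shared by most laminins, gave 241, 256 and 238 CPM in wild-type cells and 236, 246 and 246 in knockout cells. Its groups overlapped, and the log2 fold change of -0.016 had a 95% interval from -0.087 to 0.054. LAMC3, a gamma chain of narrower use, stood at 7.13 ± 0.913 against 7.52 ± 0.909 CPM.

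Chain makeup was read on the TPM scale, where genes of different length can be set side by side. LAMC1 made up 95.7% ± 1.32 of gamma chain TPM in wild-type cells and 95.7% ± 1.39 in knockout cells. Among beta chains LAMB2 held 56.9% ± 5.09 and 57.8% ± 1.96, and LAMB1 held 42.8% ± 5.37 and 41.8% ± 1.83. Among alpha chains LAMA4 came first with 40.4% ± 5.18 and 38.7% ± 2.31, before LAMA5 with 33.7% ± 4.18 and 33.2% ± 0.930. Their ranges overlapped among the wild-type libraries and not among the knockout libraries. Between the groups the shares of these 5 chains differed by less than 1 SD. Summed alpha chain TPM was 46.6, 52.5 and 40.7 in wild-type cells and 39.0, 38.4 and 39.6 in knockout cells, which do not overlap. Beta chain sums of 54.8, 70.9 and 73.8 against 60.0, 51.5 and 54.9 do overlap. Gamma chain sums were 78.3, 85.9 and 77.7 against 73.6, 75.5 and 65.2, all knockout libraries lower. On the log2(TPM + 1) scale no laminin gene was called (limma adjusted p = 0.131 for LAMA4, 0.303 for LAMA5 and 0.512 for LAMA1). The median log2 fold change of all tested genes on that scale was -0.059.

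**Figure D2:**
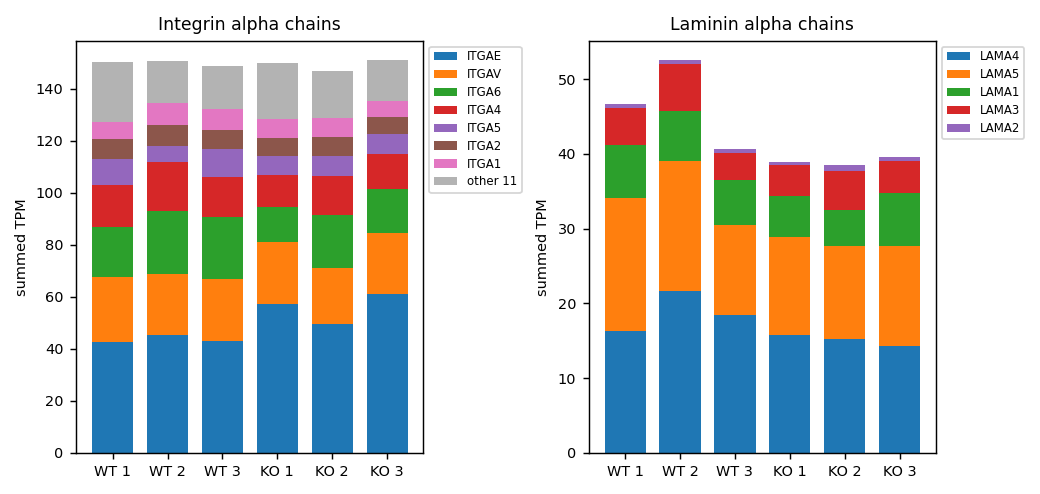
Stacked TPM of integrin alpha chains (left) and laminin alpha chains (right), with 1 bar per library, wild type (WT) and knockout (KO), and 1 colour per chain. The integrin bars are nearly level, at 147 to 151 TPM. ITGAE takes more of the 3 knockout bars (33.7% to 40.4%) than of the wild-type bars (28.5% to 30.0%). Its share rests on a short deposited length, 18.5% of its longest annotated transcript. The laminin bars are 40.7 to 52.5 TPM in the wild type and 38.4 to 39.6 in the knockout.

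NID1, a link protein between laminin and collagen IV, was the member with the smallest p. NID1 (chromosome 1, 235975830 to 236065162, minus strand) gave 198, 195 and 190 CPM in wild-type cells and 233, 236 and 232 in knockout cells. The lowest knockout library was well above the highest wild-type library. Means of 195 ± 4.19 and 234 ± 2.18 gave a log2 fold change of 0.27 (SE 0.031, edgeR adjusted p = 4.95e-05). Its neighbourhood moved with it. The 50 tested genes around NID1, the same number on each side by order, had a median log2 fold change of 0.26. Of these 29 rose and 1 fell, and 24 lay above NID1. Over chromosome 1 the median was 0.15, and 564 of 1574 tested genes (35.8%) rose. The part of that regional shift in the NID1 value was not tested. Of the 6 tested members on chromosome 1, NID1 was the only one to rise by edgeR and none fell by edgeR or DESeq2. AGRN was lower at an unadjusted p under 0.05 and was called lower by limma-voom. Around the called members on other chromosomes the same medians ran from -0.08 (DAG1) to 0.12 (ITGAE). The 50 tested genes around LAMC1 on the same chromosome had a median of 0.16, beside -0.016 for LAMC1.

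**Figure D3:**
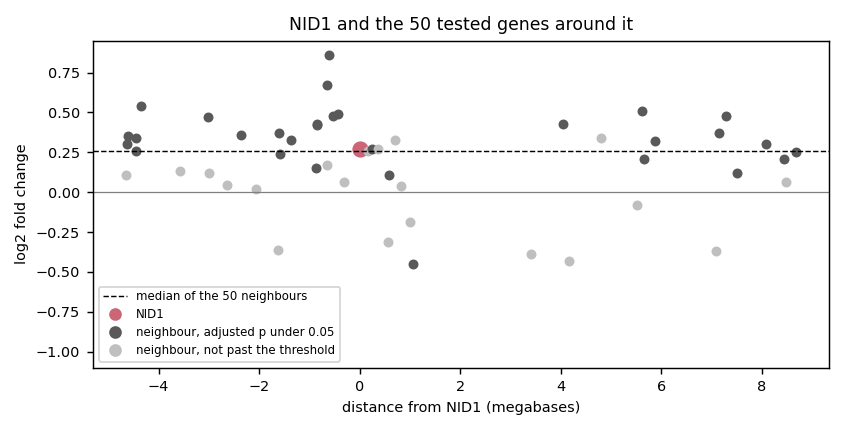
Log2 fold change, knockout against wild type, of NID1 and the 50 tested genes around it by order on chromosome 1. Points are placed by distance from NID1 in megabases, with darker points for genes past the edgeR threshold. NID1 at 0.27 sits close to the dashed median of its neighbours at 0.26.

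NID2, the other nidogen, averaged 26 ± 1.38 and 23.1 ± 2.10 CPM, with overlapping groups (log2 fold change -0.17, edgeR adjusted p = 0.117). Without knockout replicate 3 the adjusted p was 0.0272. RTRAF overlaps NID2 on the opposite strand, with 7960 and 8183 summed counts in wild-type and knockout libraries, beside 1484 and 1287 for NID2. AGRN, a heparan sulphate proteoglycan that binds laminin and dystroglycan, gave 63.2, 59.8 and 59.1 CPM against 54.0, 51.8 and 57.9. Its groups did not overlap, and the log2 fold change of -0.15 stood at the threshold (edgeR adjusted p = 0.0501). AGRN was called lower in 8 of 18 alternatives, among them RLE scaling (adjusted p = 0.0438), effective-length offsets (log2 fold change -0.27, adjusted p = 0.0343) and limma on log2(TPM + 1) (-0.32, adjusted p = 0.0387). HSPG2, the core protein of perlecan, ranged from 15 to 22.5 CPM in wild-type cells and from 15.1 to 17.1 in knockout cells. Wild-type replicate 3 was the lowest of all 6 HSPG2 values, and without it the adjusted p moved from 0.247 to 0.0206. FN1, the fibronectin gene, had nearly equal means of 65.2 ± 1.34 and 65.0 ± 4.25 CPM, with a 95% interval of the log2 fold change from -0.11 to 0.10.

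DAG1 (chromosome 3, 49468703 to 49535618, plus strand) encodes both subunits of dystroglycan. It gave 207, 197 and 202 CPM in wild-type cells and 174, 180 and 186 in knockout cells, with every knockout library lower. The means were 202 ± 5.30 and 180 ± 5.94, a log2 fold change of -0.17 (SE 0.035, edgeR adjusted p = 0.00385). On the TPM scale DAG1 stood at 65.4 ± 1.75 and 54.4 ± 1.27, beside 76.1 and 73.1 for ITGB1, 77.2 and 68.4 for LAMC1 and 57.4 and 64.9 for NID1.

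Of 17 integrin genes tested, 1 rose (ITGAE), 1 fell (ITGB5) and 15 did not pass, with a median log2 fold change of -0.044. Over all tested genes 12.1% rose and 11.4% fell. ITGB1, the beta chain shared by the collagen, laminin and fibronectin receptors, gave 162, 154 and 162 CPM in wild-type cells and 163, 158 and 150 in knockout cells. The groups overlapped, and the 95% interval of its log2 fold change (-0.020) ran from -0.10 to 0.057. Its share of beta chain TPM was 78.5% ± 3.12 and 80.4% ± 2.65.

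ITGB5, the partner of the alpha V chain in a vitronectin receptor (chromosome 3, 124761948 to 124901418, minus strand), gave 23.3, 24.5 and 21.5 CPM in wild-type cells and 19.8, 18.8 and 18.6 in knockout cells. All knockout libraries were below the wild type. The means were 23.1 ± 1.55 and 19.1 ± 0.610, a log2 fold change of -0.28 (SE 0.073, edgeR adjusted p = 0.0139). Without wild-type replicate 2 the adjusted p was 0.0714. ITGAV, which encodes alpha V, gave 70.1, 64.2 and 71.4 CPM against 61.3, 61.7 and 63.5, also without overlap. Its log2 fold change of -0.14 fell short of the threshold (edgeR adjusted p = 0.0522), and without wild-type replicate 2 or knockout replicate 3 it was past it (adjusted p = 0.0229 and 0.0493). ITGB8, another partner of alpha V, was low, at 2.39 ± 0.144 and 2.08 ± 0.302 CPM.

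ITGAE encodes the alpha E chain, known from lymphocytes that sit in epithelia, where it pairs with beta 7 to bind E-cadherin. ITGAE (chromosome 17, 3714628 to 3801243, minus strand) gave 14.9, 16.4 and 15.1 CPM in wild-type cells and 20.7, 18.5 and 21.1 in knockout cells. The groups did not overlap, and the means were 15.4 ± 0.803 and 20.1 ± 1.41. The log2 fold change was 0.38 (SE 0.080, edgeR adjusted p = 0.00358). Its partner ITGB7 had 0 counts in all 6 libraries, where 3 counts over a group would be 0.0525 CPM in wild-type cells and 0.0536 in knockout cells. The deposited length of ITGAE was 719 to 732 bases in wild-type cells and 704 to 708 in knockout cells, 18.5% of its longest annotated transcript of 3858 bases. HASPIN, a kinase gene, lies inside ITGAE on the opposite strand and had a log2 fold change of 0.14 (adjusted p = 0.0766). The 50 tested genes around ITGAE had a median of 0.12. Summed counts in wild-type and knockout libraries were 2373 and 2569 for HASPIN, beside 882 and 1121 for ITGAE. Only the overlap of the gene spans was read, and whether HASPIN reads entered the ITGAE counts was not tested. TPM is a level per length. On this scale ITGAE took 29.1% ± 0.806 of integrin alpha TPM in wild-type cells and 37.5% ± 3.40 in knockout cells. Chains such as ITGAV, ITGA6 and ITGA4 had more counts, ITGAV with means of 68.6 and 62.2 CPM. The ITGAE share rests on the short deposited length, and whether these reads come from full-length message was not tested.

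Chains that pair with ITGB1 or ITGB4 to bind laminin are ITGA3, ITGA6 and ITGA7. ITGA6 gave 54.2, 59.1 and 53.6 CPM in wild-type cells and 43.7, 52.5 and 50.9 in knockout cells. The groups were apart by a small gap, and the log2 fold change of -0.18 did not pass (edgeR adjusted p = 0.0656). It was past the threshold without knockout replicate 2 (0.0393). ITGA3 averaged 7.42 ± 0.988 and 6.98 ± 0.958 CPM, ITGA7 7.04 ± 1.15 and 7.29 ± 0.629, and ITGB4 1.49 ± 0.203 and 1.41 ± 0.223, all with overlapping groups. The collagen receptors ITGA1, ITGA2 and ITGA10 also overlapped, with means of 19.0 and 18.9, 34.3 and 33.2, and 0.598 and 0.813 CPM. Fibronectin receptors ITGA4 and ITGA5 overlapped too, at 46.9 ± 1.41 against 44.7 ± 3.07 and 16.9 ± 1.86 against 18.8 ± 0.908 CPM. ITGA8, an alpha chain needed in kidney development, gave 17.5, 14.9 and 16.6 CPM against 18.1, 20 and 18.6. Its knockout libraries were all higher, with a log2 fold change of 0.21 that did not pass (edgeR adjusted p = 0.0836). ITGA9, a receptor chain for tenascin, and ITGA2B, the platelet fibrinogen receptor chain, averaged 2.95 against 3.26 and 2.68 against 2.05 CPM.

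**Figure D4:**
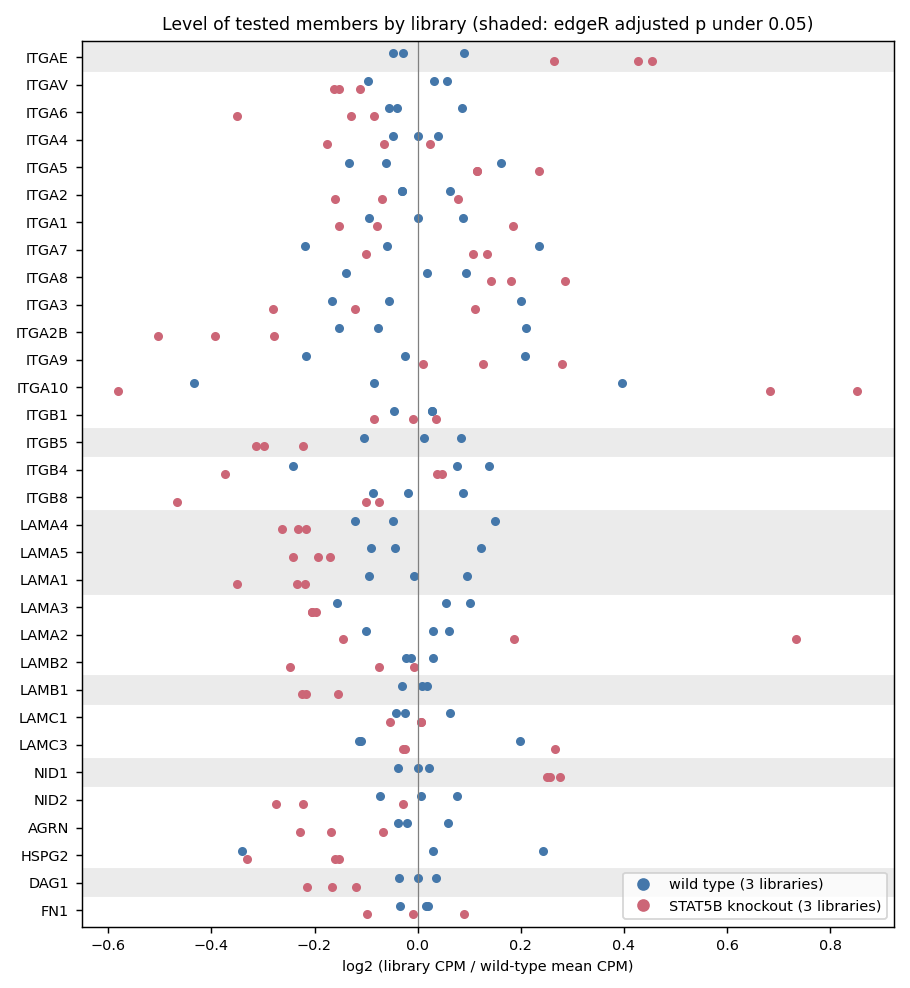
Level of tested members in each library as the log2 ratio of its CPM to the wild-type mean, with 1 point per library and shading for members with an edgeR adjusted p under 0.05. NID1 and ITGAE have all knockout points to the right of the wild-type points, while the 6 genes that fell have them all to the left.

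The 11 members too low to test include several chains of leukocytes and platelets, while ITGAE and ITGA2B were tested. Summed over 3 libraries, wild type and knockout, the counts were 31 and 18 for ITGB3, 15 and 15 for LAMB3, 10 and 11 for ITGA11, 4 and 5 for ITGB2, and 2 and 5 for LAMB4. They were 3 and 3 for ITGAL, 1 and 4 for ITGAD, 2 and 1 for ITGAX, 0 and 2 for ITGAM, 0 and 1 for ITGB6, and 0 and 0 for ITGB7. Such counts were too few for a comparison.

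Fold changes followed transcript length over the whole table. Among all tested genes the median log2 fold change went from 0.09 at up to 1000 bases to -0.16 above 7000, and the share that fell went from 2.12% to 41.9%. Members are long, with a median of 5308 bases against 2345 for all tested genes, and 51.5% of them exceed 5000 bases against 12.2%. Of 7 members above 7000 bases 1 fell, and of 10 from 5000 to 7000 bases 2 fell, where 30.2% of all tested genes did. Of 10 members from 3000 to 5000 bases 2 fell, LAMA4 and LAMB1, where 15.1% of all tested genes did. ITGB5 lay in a band from 2000 to 3000 bases, where 8.72% of all tested genes fell, and ITGAE in the band up to 1000 bases, where 16.9% rose. NID1 lay in the band from 5000 to 7000 bases, where 6.87% rose.

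**Figure D5:**
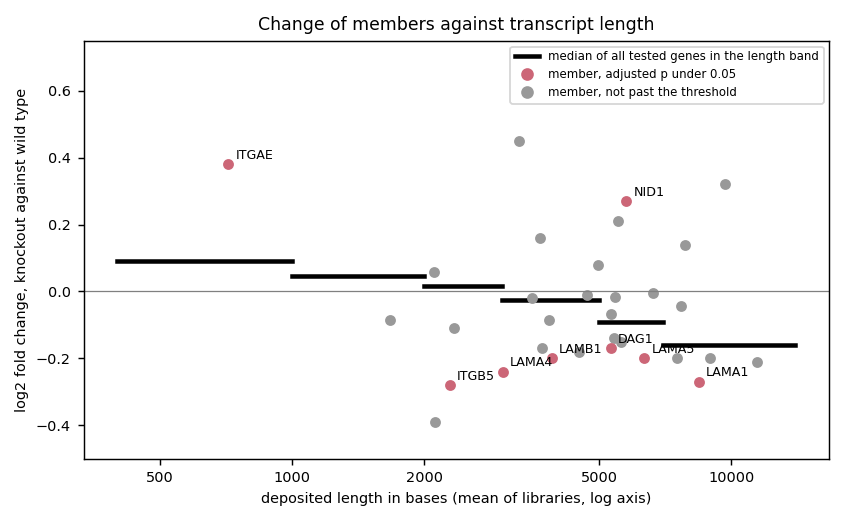
Log2 fold change of tested members, knockout against wild type, by deposited length in bases on a log axis, with black bars for the median of all tested genes in 6 length bands. The bars descend from 0.09 to -0.16, and LAMA1, LAMA5 and DAG1 lie nearer to their bar than ITGB5, LAMA4 and LAMB1.

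When each library's trend of counts on length was removed, ITGB5, LAMA4 and LAMB1 kept their calls (edgeR adjusted p = 0.00933, 0.026 and 0.0145). Those of DAG1 (0.0629), LAMA1 (0.159) and LAMA5 (0.224) ended. When the deposited effective lengths were used instead, DAG1 kept its call (0.0159), and those of ITGB5 (0.549), LAMA4 (0.181), LAMB1 (0.176), LAMA1 (0.601) and LAMA5 (0.342) ended. With effective lengths the log2 fold changes of LAMA4 (-0.24), LAMB1 (-0.21) and LAMA5 (-0.21) were about those of the count test, while those of ITGB5 (-0.17) and LAMA1 (-0.12) were nearer to 0. Of the 6, 0 were called lower in both settings. The rises of NID1 and ITGAE were called under both, and length-trend offsets added ITGA8 (0.026). Deposited lengths themselves differed between the groups without overlap for 3 of 33 members, ITGAV, NID2 and ITGAE, all shorter in knockout cells, beside 10.5% of all tested genes.

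Genes that work with these receptors and matrix proteins were counted in lists, to be read beside the background of 12.1% higher and 11.4% lower. Among 24 other basement membrane genes tested, 1 rose and 6 fell, with a median log2 fold change of -0.060. SPARC, a collagen-binding matrix protein, read 4.46, 4.04 and 4.72 CPM in wild-type cells and 0, 0.048 and 0 in knockout cells. With 252 against 1 counts, the ratio of wild type to knockout was 247, with a 95% counting interval from 43.9 to 9790. FRAS1, a protein that joins epithelium to dermis, fell from 54.9 ± 2.25 to 44.7 ± 1.36 CPM, and COL4A1, a collagen IV chain, from 54.9 ± 4.01 to 44.3 ± 1 (edgeR adjusted p = 0.000856 and 0.00144). Of the other collagen IV chains COL4A4 and COL4A5 also fell, while COL4A2, COL4A3 and COL4A6 did not pass. COL4A2 averaged 130 ± 4.6 and 133 ± 5.19 CPM (edgeR adjusted p = 0.58). P3H1, a collagen-modifying enzyme on chromosome 1, rose from 65.0 ± 1.17 to 83.0 ± 5.83 CPM (edgeR adjusted p = 0.00023). With length-trend offsets 5 of the list fell, with effective-length offsets 4 did, and on the log2(TPM + 1) scale 2 did.

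Among 18 tetraspanins and other matrix receptors, 6 rose and 2 fell (median 0.069). BCAM, a receptor for the laminin alpha 5 chain, gave 9.42, 8.76 and 8.37 CPM in wild-type cells and 5.45, 5.66 and 6.74 in knockout cells, a log2 fold change of -0.57 (SE 0.12, edgeR adjusted p = 0.00357). All its knockout values were lower. CD47, a partner of integrins, fell by 0.18, while SDC2 and SDC1, syndecans that hold heparan sulphate, rose by 0.26 and 0.33 and DDR2, a collagen receptor kinase on chromosome 1, by 0.22 on the log2 scale. The 6 rises became 3 without wild-type replicate 2, wild-type replicate 3 or knockout replicate 3, and 0 with effective-length offsets. The 2 falls became 1 without knockout replicate 1, 1 with effective-length offsets and 4 with length-trend offsets.

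Focal adhesion genes, which join integrins to actin, were called near the background share in each direction: of 52 tested 8 rose, 6 fell and 38 did not pass (median -0.012). ENAH, an actin elongation factor on chromosome 1, rose by 0.24, FYN, a kinase, by 0.33 and FLNC, a filamin, by 0.21. LPP fell by 0.40, FLNA, the most widespread filamin, by 0.24 and KANK2, which binds talin, by 0.30 on the log2 scale. With effective-length offsets 3 of the list rose and 4 fell, and on the log2(TPM + 1) scale 1 rose and 6 fell.

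The partners of dystroglycan were counted in 2 lists. Of 12 tested dystrophin-associated genes, 3 fell and none rose by edgeR, DESeq2 or limma-voom, while 2 were higher at an unadjusted p under 0.05 and 2 rose with length-trend offsets. The 3 falls became 1 with effective-length offsets and 1 on the log2(TPM + 1) scale. The 3 that fell in the count test were PLEC, a cytoskeletal linker, at 202, 181 and 176 CPM against 133, 123 and 137, and UTRN and DMD, which join dystroglycan to actin. UTRN went from 134 ± 9.32 to 113 ± 1.91 and DMD from 18.2 ± 0.828 to 14.7 ± 0.886 CPM, and all 3 had groups that did not overlap (edgeR adjusted p = 1.87e-05, 0.00167 and 0.0134). Among 18 enzymes that build the laminin-binding glycan of dystroglycan, 2 rose and 3 fell (median -0.013). B3GALNT2 rose from 79.0 ± 1.22 to 110 ± 2.94 CPM and DPM3 from 7.76 ± 0.469 to 10.3 ± 0.784, both on chromosome 1. POMK, a kinase that acts on that glycan, fell from 21.6 ± 0.749 to 15.3 ± 0.909 CPM (edgeR adjusted p = 0.000299). With length-trend offsets, and also with effective-length offsets, 1 of the list rose and 1 fell.

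Of 14 other integrin ligands tested, TGFB1, a growth factor whose latent form alpha V integrins bind, and EDIL3, which carries an RGD motif, rose by 0.23 and 0.38. FBN1, a microfibril protein, fell by 0.33 on the log2 scale. The 2 rises became 0 without wild-type replicate 1 or 2 or knockout replicate 1 or 3, and 1 without wild-type replicate 3. They became 1 with DESeq2, and 0 with effective-length offsets and on the log2(TPM + 1) scale. The fall ended with length-trend offsets and on the log2(TPM + 1) scale. Of 15 matrix proteases and inhibitors, PLAT, tissue plasminogen activator, rose by 0.23, and the metalloproteases ADAM10 and ADAMTS1 fell by 0.36 and 0.21 on the log2 scale. None of these 3 was called with effective-length offsets.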

How the data were processed

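Libraries were made from RNA of HEK293 cells with an mRNA kit, per the labels' protocols, in 3 wild-type and 3 STAT5B knockout samples grouped by the genotype label. Per the submitters' processing notes, FastQC, fastp, DRAGEN and Picard were used with build hg38, their roles unstated. The sources used here state neither the annotation release nor the use of strand in counting. Deposited files held estimated counts, TPM and gene lengths (length and effective length in bases), per the file headers.

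Deposited estimated counts were rounded and tested with edgeR 4.0.16 in R 4.3.3: filterByExpr (minimum count 10, minimum total 15), TMM scaling, the quasi-likelihood F test of group, and Benjamini-Hochberg adjustment over 15958 tested genes, with a threshold of 0.05. CPM use TMM-scaled library sizes. TPM, as deposited by the authors, gave levels per length and 2 alternatives. Positions came from GENCODE release 29. Replicates of a group differed by 2.446 to 7.502 chi-square per degree of freedom, above sampling noise. Intervals from counts and floors of 3 counts cover counting error only. The script was tested on simulated data.

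Members and lists were chosen with earlier results of these data known. Every member past the threshold is named with its values, others by role, and up to 3 called genes per direction from each list, by smallest p. The other collagen IV chains are named beside COL4A1. The alternatives comprised DESeq2 1.42.0, RLE scaling, limma-voom (limma 3.58.1), no filter, a filter of 1 CPM in 3 libraries, effective-length and length-trend offsets, limma on log2(TPM + 1) and log2(TPM + 0.1), a replicate block, a test against a 1.2-fold change, and leaving out each library. Offsets for length and GC content were added after seeing the data. Some genes that the rule takes are left out of the text and figures.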

Additional observations from a re-analysis of the deposited data

How the results depend on the processing

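With 3 libraries a group and one cell line, the precision is that of these libraries. The rises of NID1 and ITGAE were called in 17 of 18 alternatives and became 0 in the test against a 1.2-fold change, and ITGA8 made 3 rises with length-trend offsets and with length and GC offsets. The number of falls, 6 in the count test, was 2 with effective-length offsets, on log2(TPM + 1) and on log2(TPM + 0.1), namely DAG1, 1 of the 6, and AGRN. It was 3 with length-trend offsets and 3 with length and GC offsets (ITGB5, LAMA4 and LAMB1), and 0 against a 1.2-fold change. The cause was not tested. RLE scaling, no filter and a stricter filter each gave 8 falls, limma-voom 7 (AGRN added) and DESeq2 6. Leaving out 1 library gave 4 (without knockout replicate 1) to 8 falls (without knockout replicate 3 or wild-type replicate 3) and 2 rises each time. No called member changed sign in any alternative.

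Replicate numbers showed no clear pairing of the samples. Deviations of same-numbered libraries correlated at -0.04868, 0.1046 and 0.02902, and those of other pairs at -0.1192 to 0.09565. Not every library correlated best with its own number, and such small values cannot settle whether the samples were paired. With the replicate block 2 members rose and 7 fell, ITGA6 being the addition (adjusted p = 0.03). Over all genes calls went from 3742 to 3660 with the block, 1734 with effective-length offsets, 1623 on log2(TPM + 1), 1622 on log2(TPM + 0.1) and 295 against a 1.2-fold change. On log2(TPM + 1) 488 calls were rises, against 1924 in the count test, and the median of all genes was -0.059.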
